A study of Homo sapiens with 4 samples.

Results

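The transcript levels of 10 nuclear genes that encode chaperones and proteases of the mitochondrion were examined in MDA-MB-231 cells, a long-established human line from breast cancer of the triple-negative kind. The genes are HSPE1, HSPD1, HSPA9, GRPEL1, TRAP1, LONP1, CLPP, CLPX, YME1L1 and AFG3L2. They were chosen by function around HSPE1, which was itself chosen by its value in the authors' own comparison, so the choice is not independent of these data. Every row that carries one of the 10 gene symbols was taken, which gave 47 of the 43596 listed transcripts and 10 of the 15113 listed genes. The cells had been exposed for 24 h to DMSO, the solvent, or to 10 µM KH-3, a small molecule inhibitor of the RNA-binding protein HuR, with 2 mRNA libraries per condition. All libraries come from this single cell line.

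For each transcript the deposited table holds 1 measured level, the authors' mean normalized read count over libraries, beside the fold change, p-value and q-value of the authors' own comparison. Those comparison columns were not used here, and the table has no value per library. The direction and size of any change with KH-3 in these 10 genes are therefore not reported. Which libraries entered the mean is not stated, so a level may combine treated and untreated libraries, among them those of a lower KH-3 dose that the methods of the study name and that was not analysed here. The depth of each library is unknown. Each value below is the authors' mean with no SD and no n, so no difference between genes or transcripts could be set against the spread between replicates. A level means the mean normalized read count divided by the transcript length in kb, summed over the listed transcripts of a gene.

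Most mitochondrial proteins are made in the cytosol, imported unfolded and folded in the matrix. There the HSP70 chaperone binds incoming chains, the barrel-shaped chaperonin encloses and folds them, and ATP-driven proteases degrade those that fail. HSPD1 encodes the barrel of the chaperonin, HSP60, and HSPE1 encodes its lid, HSP10. HSPA9 encodes the matrix HSP70, known as mortalin, and GRPEL1 the factor that exchanges its nucleotide. TRAP1 is the HSP90 of the mitochondrion. LONP1 and the pair of CLPX, an unfoldase, and CLPP, a peptidase, work in the matrix, whereas YME1L1 and AFG3L2 are proteases anchored in the inner membrane.

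The libraries carried the transcripts known for this cell line. The mesenchymal gene VIM had a level of 10135, AXL of 2820, CAV1 of 2599, EGFR of 1242 and CD44 of 427. ERBB2 had a level of 44.3, and ESR1, PGR, CDH1 and KRT5 have no row in the table used here. Among markers of other cells, PTPRC and DCN have no row, PECAM1 had a level of 4.08 and COL1A1 of 39.4. Why a gene has no row is not stated, so a missing row alone does not show a low level. The median over all 15113 genes was 108.

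The chaperonin pair is shown first by its sequences, because the main HSPD1 and HSPE1 transcripts start head to head on chromosome 2 and the listed transcripts differ in where they start and end. In GENCODE release 44 on hg38, HSPD1 spans 197486584 to 197516737 on the minus strand and HSPE1 spans 197500140 to 197503449 on the plus strand. The RefSeq promoter table of GRCh38.p14 places 1 HSPD1 start at 197500274, which is the start of HSPD1-201. It places the HSPE1 start at 197500379, which is that of both protein-coding HSPE1 transcripts in release 44. The 104 bases between these starts, chr2:197500275-197500378, lie upstream of both of these starts and are 74.0% G and C. The whole HSPD1 gene of release 44 reaches beyond them and covers HSPE1. A second HSPD1 start lies 434 bases further into HSPD1, at 197499840, and is that of HSPD1-001 in release 44. The 40 bases that open its promoter window, chr2:197500051-197500090, hold a run of heat shock element units, the 3-letter units GAA and TTC in turn with any 2 letters between, shown in capitals. The first sequence is given on the plus strand and the second on the minus strand, both 5′ to 3′.
Between the HSPD1 and HSPE1 starts: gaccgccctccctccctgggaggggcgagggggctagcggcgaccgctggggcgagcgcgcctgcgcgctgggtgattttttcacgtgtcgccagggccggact
Upstream of the second HSPD1 start: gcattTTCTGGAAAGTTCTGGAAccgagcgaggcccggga

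The heat shock element is the sequence bound by heat shock factors. It was searched as the pair GAANNTTC or TTCNNGAA and as the triple GAANNTTCNNGAA or TTCNNGAANNTTC; each set reads the same on both strands, and matches may overlap. The windows were 300 bases long, 250 before and 50 after each start. The RefSeq table held 9 windows for 7 of the 10 genes, and none for GRPEL1, CLPP and YME1L1. A triple was found in 1 of the 9 windows, that of the second HSPD1 start, against 0.490% of all 35116 windows. Its 18-base run, at 197500068 to 197500085, lies 228 to 245 bases before the second HSPD1 start, within the first intron of HSPD1-201. Its nearer end is 294 bases before the HSPE1 start and so outside the HSPE1 window. A pair was found in 2 of the 9 windows, those of the second HSPD1 start and of HSPA9, against 13.5% of all windows. The windows of HSPE1 and of the first HSPD1 start held no match. These are matches of letters only, and no binding was measured.

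HSPE1 and HSPD1 were among the most abundant transcripts listed. HSPD1 had a level of 5714 and was at place 105 of 15113 genes, and HSPE1 had a level of 4031 and was at place 165. Both stood far above the median gene, by 52.8-fold for HSPD1 and 37.2-fold for HSPE1. Before division by length, the authors' means summed to 9669 normalized reads for HSPD1 and 2399 for HSPE1, whose transcripts are shorter. The ratio of HSPE1 to HSPD1 was 0.705 on the level per length. With protein-coding transcripts alone it was 1.19, so which of the 2 genes was higher depended on the transcripts counted.

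HSPD1 reads were assigned mainly to the transcript that starts opposite HSPE1. HSPD1-201, which is protein-coding and 2299 bases long, had a mean of 7290 normalized reads, or 75.4% of the reads of the gene, and a level of 3171. HSPD1-001, also protein-coding, begins at the second start in release 44, and had 452 reads and a level of 184. In release 44 the pair share their exons from the second one on, apart from the very end of the last, and have separate first exons. The listed length of HSPD1-001 was 2455 bases against 2245 in release 44, and where the listed model starts was not examined. How this bears on the division of reads was not tested.

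A retained-intron transcript, HSPD1-003, took the second largest part of HSPD1. It had 1764 reads over 860 bases, a level of 2051 and 35.9% of the level of the gene, against 18.2% of its reads. Of its 860 bases, 584 lie in exons of the protein-coding HSPD1 transcripts. Reads from these bases fit several transcripts, and their assignment was made by the authors' read assignment tool. The remaining HSPD1 transcripts, HSPD1-004 and HSPD1-008, are annotated as retained-intron too and had levels of 276 and 31.4.

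**Figure D1:**
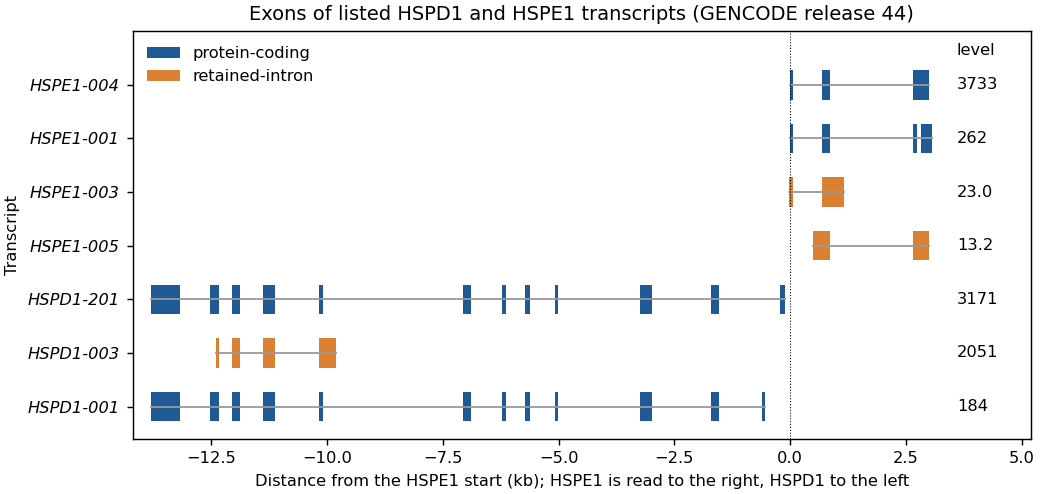
Exons (boxes) and introns (lines) of HSPD1 and HSPE1 transcripts in GENCODE release 44, by distance in kb from the HSPE1 start, with the level of each transcript (mean normalized reads per kb) at the right. HSPD1-201, read to the left, starts just beside the HSPE1 start and had a level of 3171, while HSPD1-001 starts further left and had 184. The models of HSPE1-001 and HSPD1-001 differ in length from the authors' release. HSPD1-004 and HSPD1-008, with no model of the listed length, are not drawn.

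Most HSPE1 reads were assigned to HSPE1-004, a protein-coding transcript of 570 bases with 2128 normalized reads and a level of 3733. This was 88.7% of the reads of the gene and 92.6% of its level. HSPE1-001, the protein-coding transcript whose coding end is that of the reference HSP10 protein, had 249 reads, 10.4% of the gene, and a level of 262. In release 44 both share their first 316 bases, and HSPE1-004 then reads on through a stretch that HSPE1-001 removes as an intron. From 2830 to 3003 bases after the HSPE1 start, their exons overlap again. Reads from the shared bases fit both transcripts. Their coding sequences hold 101 codons in HSPE1-004 and 102 in HSPE1-001 before the stop. Their coding ends are chr2:197503129-197503176 for HSPE1-004 and chr2:197503209-197503259 for HSPE1-001, on the plus strand, with the stop codon in capitals. The HSPE1-004 end lies in the intron of HSPE1-001. The HSPE1-001 end also lies in HSPE1-004, after its stop codon, so only the HSPE1-004 end tells the transcripts apart.
HSPE1-004: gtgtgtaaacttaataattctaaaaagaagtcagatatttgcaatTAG
HSPE1-001: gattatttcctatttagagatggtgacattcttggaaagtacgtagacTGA

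The table lists HSPE1-001 with 950 bases, against 557 in release 44, and whether the split between these transcripts changes with that length was not tested. The retained-intron transcripts HSPE1-003 and HSPE1-005 had 13.1 and 9.23 reads, with levels of 23.0 and 13.2. The processed pseudogene HSPE1P3, a gene copy of 309 bases, was listed with 117 reads and a level of 378. The coding sequence of HSPE1-001 with its stop also has 309 bases, and reads of such copies cannot always be told from those of the parent gene. For HSPD1 the listed pseudogenes were HSPD1P11, with 21.0 reads, and HSPD1P4, with 8.32 reads. The read-through gene HSPE1-MOB4 had 0 rows.

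In release 44 the other genes lie apart from this pair. HSPA9 on chromosome 5 from 138553756 to 138575675, GRPEL1 on chromosome 4 from 7058671 to 7068085 and TRAP1 on chromosome 16 from 3651639 to 3717553 are on the minus strand. Likewise on the minus strand are LONP1 on chromosome 19 from 5691834 to 5720572, CLPX on chromosome 15 from 65148219 to 65185342, YME1L1 on chromosome 10 from 27110111 to 27155266 and AFG3L2 on chromosome 18 from 12328944 to 12377227. CLPP on chromosome 19 from 6361531 to 6370242 is on the plus strand. Values are for transcripts, so exons and untranslated regions of each transcript are counted together.

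Over all transcripts HSPA9 had the highest level of the 10 genes, 6116, at place 98 of all genes. With protein-coding transcripts alone, with the highest transcript alone, or with gene reads over the length of the leading coding transcript, it was below HSPE1 and HSPD1. Of the 97 genes above it, 13 belong to the mitochondrial genome itself. Its single listed protein-coding transcript, HSPA9-001, had 8017 normalized reads and a level of 2414, which is 39.5% of the level of the gene and 73.4% of its reads. HSPA9-007, annotated as a target of nonsense-mediated decay, had 735 reads over 482 bases and a level of 1526. All 482 bases of HSPA9-007 lie in exons that release 44 gives to HSPA9-001. HSPA9-014, a retained-intron transcript, had 1297 reads and a level of 1104. The short transcripts therefore carried more of the level of HSPA9 than of its reads.

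GRPEL1, the partner of HSPA9, was 6.76-fold lower than HSPA9, with a level of 905. Its single protein-coding transcript, GRPEL1-001, had 724 reads and a level of 261, which is 28.8% of the level of the gene. The retained-intron transcripts GRPEL1-003 and GRPEL1-002 had levels of 412 and 201, with 364 and 442 reads. In GRPEL1-003, 86.7% of the bases lie in exons of GRPEL1-001, and in GRPEL1-002 46.4% do. The related exchange factor GRPEL2 had a level of 203, 4.47-fold below GRPEL1, or 1.98-fold with protein-coding transcripts alone.

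TRAP1 had a level of 604 at place 2091 of all genes. The reads fell on 2 protein-coding transcripts in comparable amounts, with 688 for TRAP1-001 and 466 for TRAP1-003, or levels of 300 and 227. The remaining protein-coding transcript, TRAP1-004, had a level of 17.8. The transcripts annotated for nonsense-mediated decay, TRAP1-008 and TRAP1-016, made up 9.82% of the level.

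Among the matrix proteases, CLPP had a level of 945, CLPX of 613 and LONP1 of 113. CLPP came from 4 protein-coding transcripts, led by CLPP-005 with a level of 406, CLPP-001 with 263 and CLPP-004 with 179. CLPX, by contrast, had a single protein-coding transcript, CLPX-001, with 783 reads over 4695 bases and a level of 167. A transcript annotated for nonsense-mediated decay, CLPX-003, had 645 reads over 2228 bases and a level of 290, and 97.0% of its bases lie in exons of CLPX-001. The ratio of CLPP to CLPX was 1.54 over all transcripts and 5.34 over protein-coding transcripts alone.

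LONP1, the other ATP-driven protease of the matrix, was the lowest of the 10 genes, at place 7428 of 15113 and thus close to the median gene. The 5 listed transcripts of LONP1 had 182 reads in all, and whether other transcripts of it are missing was not examined. Its main protein-coding transcript, LONP1-001, had 120 normalized reads over 3236 bases and a level of 37.2, and the second, LONP1-007, had 10.1 reads. LONP1-011, a processed transcript of 591 bases with no annotated coding sequence, had 35.2 reads and a level of 59.6, above the protein-coding level of 41.1. Of the bases of LONP1-011, 75.0% lie in coding-transcript exons of LONP1. CLPP exceeded LONP1 by 8.37-fold, and by 21.7-fold with protein-coding transcripts alone.

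The inner membrane proteases had levels similar to each other, 1021 for AFG3L2 and 751 for YME1L1, a ratio of 1.36. AFG3L2-001 had 2419 reads and 72.9% of the level of AFG3L2. The short protein-coding AFG3L2-002, of 627 bases, had 147 reads and a level of 235. All 5 listed YME1L1 transcripts were protein-coding, and YME1L1-004 had 2374 reads and 82.0% of the level. SPG7, which forms the matrix-facing membrane protease together with AFG3L2, had a level of 688, and the ratio of AFG3L2 to SPG7 was 1.48. It was 2.85 with protein-coding transcripts alone.

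**Figure D2:**
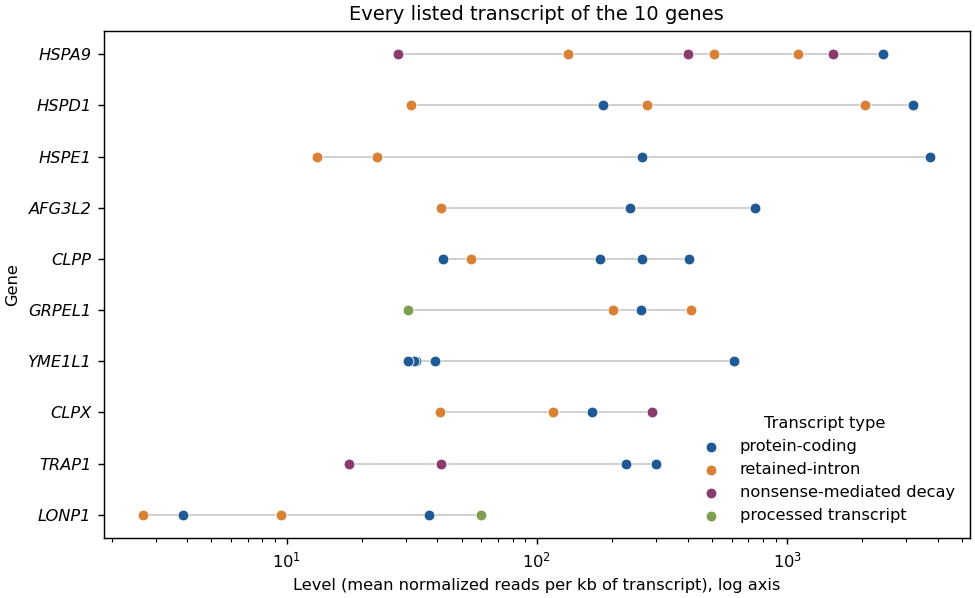
Level of each of the 47 listed transcripts (mean normalized reads per kb, log axis) by gene, coloured by transcript type, each point the authors' mean over libraries. HSPE1 is dominated by a single protein-coding transcript at 3733, while in GRPEL1, CLPX and LONP1 the highest point is not protein-coding.

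The 10 genes differed widely in how much of their level was coding. Of the 47 transcripts, 23 were protein-coding, 16 retained-intron, 6 annotated for nonsense-mediated decay and 2 processed transcripts. Protein-coding transcripts held 64.4% of the summed level of the 10 genes, against 80.1% over the 12120 listed genes that have such a transcript. Per gene the share ran from 27.2% in CLPX, 28.8% in GRPEL1, 36.4% in LONP1 and 39.5% in HSPA9 over 58.7% in HSPD1 to 99.1% in HSPE1 and 100% in YME1L1. The median share over the 12120 genes was 97.2%, and 8 of the 10 genes lay below it. In 47.0% of the 12120 genes all of the level was protein-coding, against 1 of the 10. No listed transcript had under 7.34 reads, and whether transcripts with more reads are missing as well was not examined. A missing transcript of either kind would change the share of its gene. The share in genes of like level was not examined. Counted in reads, which do not weigh short transcripts more, the shares were higher in HSPA9 with 73.4%, HSPD1 with 80.1% and LONP1 with 71.7%. They were also higher in CLPX with 50.4%, GRPEL1 with 46.9% and TRAP1 with 96.3%. In CLPP the share was lower by reads, 91.0% against 94.2%, and in AFG3L2 94.9% against 95.9%. HSPE1 stayed at 99.1% and YME1L1 at 100%. The transcript with the most reads was protein-coding in 10 of 10 genes, and the share of all listed genes in which this holds was not computed.

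**Figure D3:**
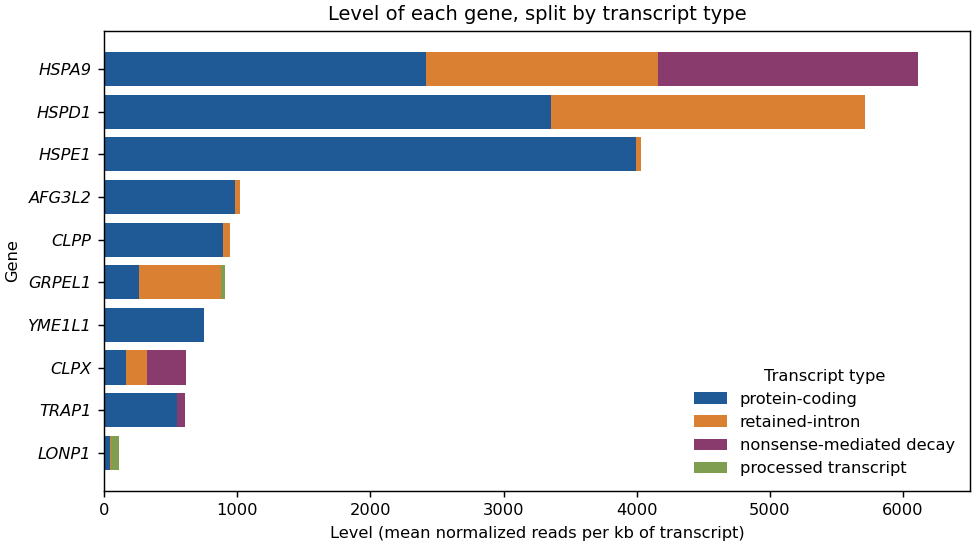
Level of each gene (mean normalized reads per kb), stacked by transcript type, from the authors' means over libraries. HSPA9, HSPD1 and HSPE1 stand apart at 6116, 5714 and 4031, and the protein-coding part of HSPE1 is the largest of them.

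HSPE1, HSPD1 and HSPA9 together stood above the rest of the group. HSPE1 and HSPD1 alone held 46.8% of the summed level of the 10 genes, and HSPA9 a further 29.4%. The lowest of the 3, HSPE1, was 3.95-fold above the next gene, AFG3L2. With protein-coding transcripts alone the lowest of the 3 was HSPA9, at 2.46-fold of AFG3L2. From AFG3L2 the order went on to CLPP, GRPEL1, YME1L1, CLPX, TRAP1 and LONP1. In 6 of 6 ways of computing the level, the top 3 places were held by HSPE1, HSPD1 and HSPA9, and the last by LONP1. Their order among themselves and the order of the other genes moved with the way of computing, except that AFG3L2 was in place 4 in 5 of the 6. Of the 10 genes, 6 were in the top 10% of all listed genes and 9 in the top 20%.

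**Figure D4:**
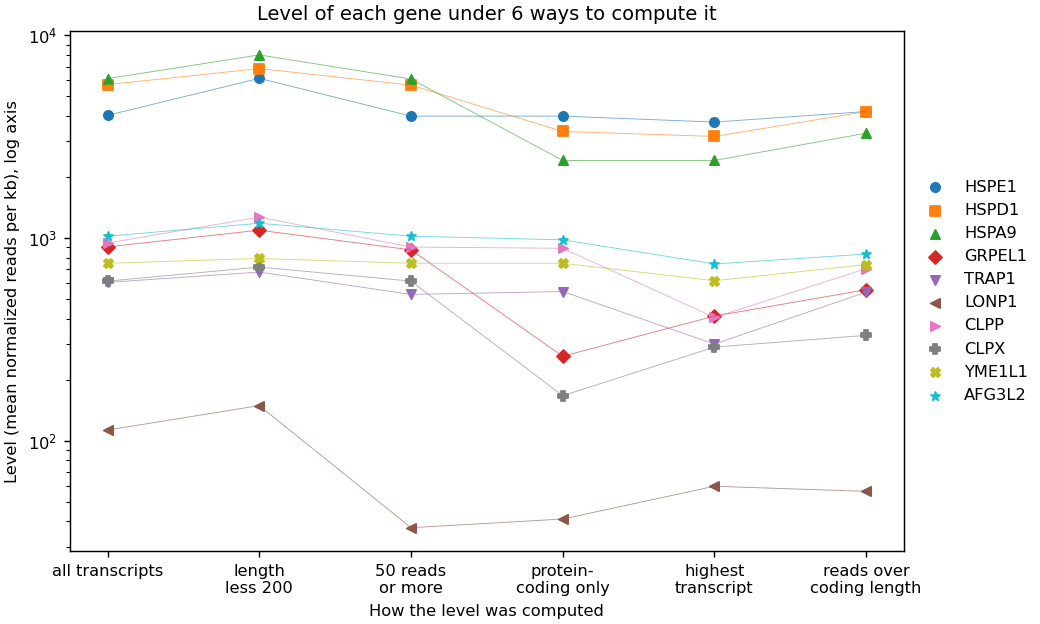
Level of each of the 10 genes (mean normalized reads per kb, log axis) under 6 ways of computing it, namely all transcripts, transcript length less 200 bases, transcripts with 50 reads or more, protein-coding transcripts alone, the highest transcript alone, and gene reads over the length of the leading coding transcript. HSPE1, HSPD1 and HSPA9 stay on top with their order exchanged, and LONP1 stays lowest.

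A list of 28 other genes of mitochondrial protein import, folding and turnover gave the surroundings of the group. All 28 had a row, with levels from 23.8 to 2439 and a median of 205, and 18 of them lay above the median gene. The 10 genes had a median level of 925, and over all transcripts each of them lay above the median gene, LONP1 by 1.04-fold. The level of LONP1 was between 37.2 and 59.6 in 4 of the 5 other ways of computing it. Highest on the list were STOML2, a scaffold protein of inner membrane proteases, with 2439, TIMM23, the channel of the inner membrane import machinery, with 1272, and PHB, a prohibitin, with 1131. The lowest were IMMP2L, a peptidase of the inner membrane, with 23.8, and PAM16, a part of the import motor, with 31.3. Next lowest was CLPB, a disaggregase of the intermembrane space, with 34.2. The 2 listed PAM16 transcripts had at most 12.3 reads each and are not protein-coding, so no coding transcript enters its level. By role, the 10 chaperones and import motor genes had a median level of 243, the 12 proteases and peptidases of 132, the 3 protease scaffolds of 1131 and the 3 genes of membrane extraction and insertion of 74.5.

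**Figure D5:**
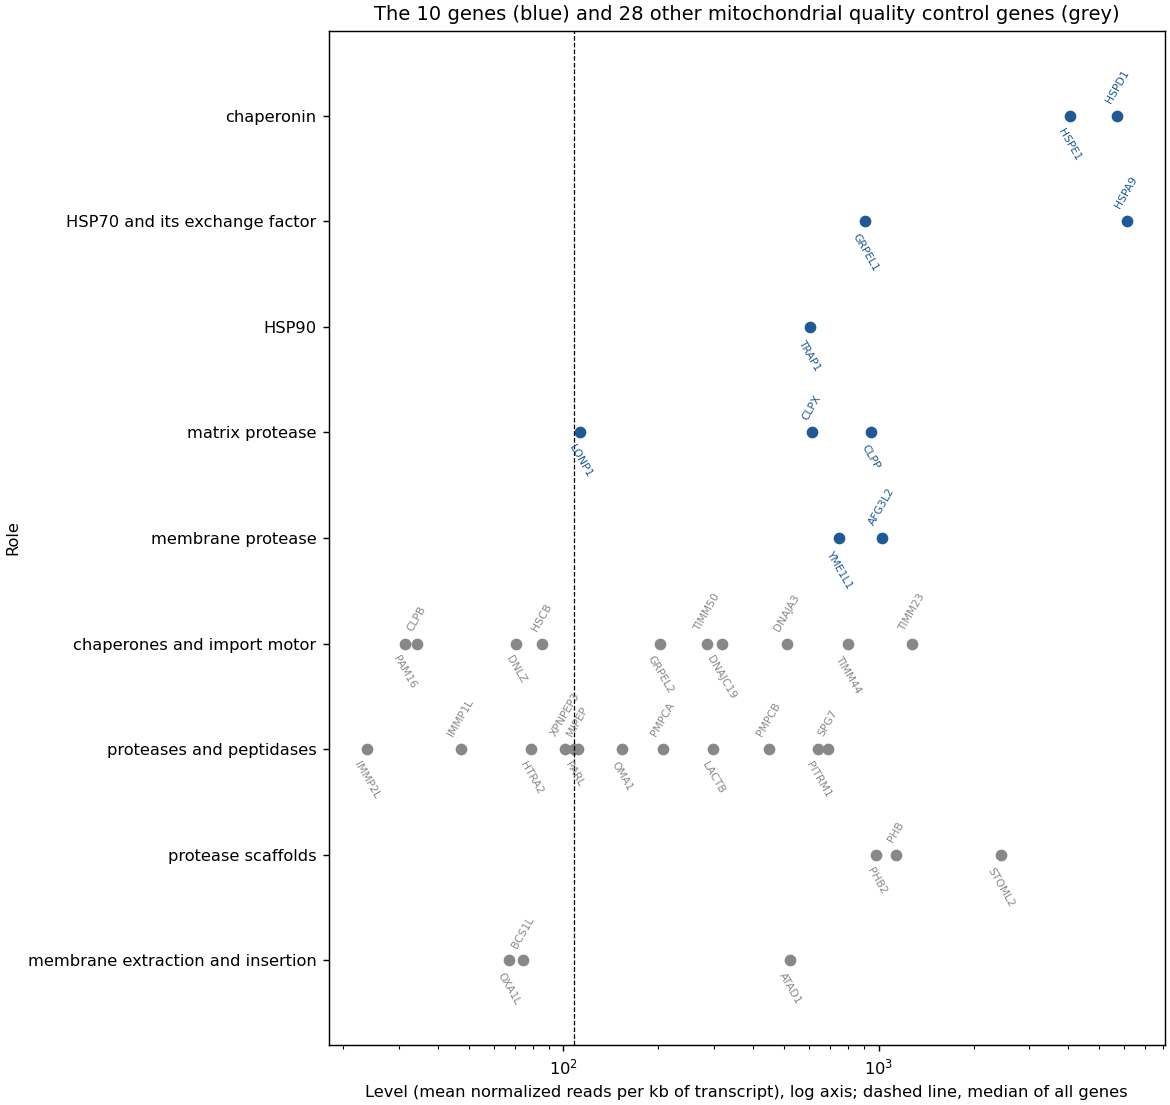
Level of the 10 genes (blue) and of 28 other mitochondrial quality control genes (grey) by role, in mean normalized reads per kb on a log axis, with the median of all listed genes, 108, as a dashed line. HSPE1, HSPD1 and HSPA9 lie to the right of every grey point, the highest of which is STOML2 at 2439.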

How the data were processed

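mRNA of MDA-MB-231 cells was sequenced on an Illumina HiSeq system. Alignment by the authors was with STAR against GENCODE release 24 transcript models (hg38), quantification per transcript was with eXpress, and DESeq2 gave their comparison. Tool versions are not given in the sources used here. The deposited mean normalized read count, a signal averaged over libraries by the authors, has a lowest listed value of 7.34 and a median of 50.8 over the 43596 transcripts. The authors' own comparison fills 3 columns (log2 fold change, p-value, q-value), which were not used. With 1 mean per transcript no test was possible, and the replicates of each condition could not be compared.

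Levels were computed as reads per kb of the listed length and summed per gene symbol. Alternatives were protein-coding transcripts alone, the highest transcript, lengths less 200 bases, and transcripts with at least 50 reads. Gene reads over the leading coding length, and pseudogene reads added to the parent gene, were added after the data were seen. The genes named were the 10 genes, the 3 highest and 3 lowest of a list of 28 further genes, their partners and paralogs, and cell line markers. The members and lists were chosen with earlier results of these data known. Coordinates and exons come from GENCODE release 44, in which 30 of the 47 transcripts have the listed length, and promoter windows from RefSeq (GRCh38.p14). The summation was run on simulated levels split over the listed lengths, which checks the arithmetic only and not the read assignment or the lengths. Python 3.11.15, numpy 2.4.6, pandas 2.3.3 and matplotlib 3.10.9 were used.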

Additional observations from a re-analysis of the deposited data

How the results depend on the processing

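No error is known for any value, so each change in the third digit counted as a move. The ratio of HSPE1 to HSPD1, 0.705 over all transcripts, turned to 1.19 with protein-coding transcripts alone, to 1.18 with the highest transcript of each gene and to 1.00 with gene reads over the leading coding length. It was 0.895 with lengths less 200 bases, 0.703 with transcripts of at least 50 reads and 0.740 with pseudogene reads added. Protein-coding transcripts and the highest transcript leave out the retained-intron transcripts of HSPD1 by construction. The share of the summed level held by HSPE1 and HSPD1 was 54.9% with protein-coding transcripts, 56.8% with the highest transcript, 48.3% with the shorter lengths, 47.2% with at least 50 reads and 54.4% with reads over the coding length. The protein-coding share of the summed level was 93.7%, 61.6% and 65.1% with the highest transcript, the shorter lengths and at least 50 reads. Of the 10 genes, 4, 4 and 3 kept their place in the order with protein-coding transcripts, the highest transcript and reads over the coding length, against 8 and 10 with the other settings. Of 50 recomputed gene levels, 11 were higher, 35 lower and 4 unchanged, at 0.272 to 1.52 of the level reported. No paired analysis was possible because the table holds 1 mean over libraries. Depth is unknown. No listed transcript had under 7.34 reads, and whether transcripts with more reads are missing as well was not examined.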

Other observations

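Chaperones of the same families in other compartments give a scale for the mitochondrial genes. The cytosolic HSP90 genes HSP90AA1 and HSP90AB1 had levels of 22746 and 12797, which is 37.7-fold and 21.2-fold that of TRAP1. With protein-coding transcripts alone these were 24.0-fold and 23.5-fold. HSP90B1, the HSP90 of the endoplasmic reticulum, was at 17.3-fold of TRAP1 over all transcripts and at 1.64-fold with protein-coding transcripts alone. HSPA9 exceeded HSPA5, the HSP70 of the endoplasmic reticulum, by 1.63-fold over all transcripts, and was at 0.645 of it with protein-coding transcripts alone. HSPD1 was 2.34-fold above TCP1 and 2.21-fold above CCT2, subunits of the cytosolic chaperonin. With protein-coding transcripts alone these were 1.41-fold and 1.77-fold. For the cytosolic HSP70 gene HSPA8 the 7 listed transcripts had at most 62.7 reads each, and the gene had a level of 136. Whether other transcripts of HSPA8 are missing from the listed rows was not examined, so no comparison with HSPA9 was made.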
